A study of Homo sapiens with 5 samples.

Results

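The keratin genes were followed in MDA-MB-231 cells, a human breast cancer cell line, after exposure to the histone deacetylase inhibitor SAHA. A gene was counted as a keratin when the array annotation mapped a probe set to it alone, its symbol was KRT followed by a digit and RefSeq listed it as protein coding. This gave 44 of the 19775 genes tested and 56 of the 41091 probe sets with 1 gene. The brightest probe set, that with the highest mean over all arrays, stood for its gene. KRT6A, KRT6B, KRT6C, KRT17, KRT26, KRT28, KRT34, KRT39, KRT81, KRT82 and KRT86 had no probe set that met this rule, and their genes were not analysed here.

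SAHA (vorinostat, suberoylanilide hydroxamic acid) blocks the enzymes that take acetyl groups off histones and other proteins. The series asked how expression in these cells differs between the inhibitor and its vehicle. Total RNA was measured on 2 arrays of cells given SAHA at 2 uM and on 3 arrays of cells given DMSO, all after 30 h in serum-containing medium. A transfection is mentioned once in the extraction text and nowhere else in the labels. They also leave unsaid whether the replicates were separate cultures, so the p-values cover only array-to-array spread, and that spread may be technical. Values are RMA intensities, compared here as log2 with limma (lmFit and eBayes), and a gene is said to be called, or to have risen or fallen, at a Benjamini-Hochberg adjusted p under 0.05 over all genes tested.

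Keratins build the intermediate filaments of epithelial cells. A filament needs a type I and a type II keratin in pairs, and which pairs a cell makes marks its kind of epithelium: KRT8 with KRT18 and KRT7 with KRT19 in simple and glandular epithelia, KRT5 with KRT14 in basal layers, KRT1 with KRT10 in the upper epidermis, and a separate set in hair and nail. In breast cancer they are used to tell luminal from basal tumours, and mesenchymal lines such as MDA-MB-231 carry vimentin filaments alongside them. Type I genes lie together on chromosome 17 and type II genes on chromosome 12, where KRT18, a type I gene, also lies beside KRT8.

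Of the 44 keratin genes, 7 rose and 1 fell after SAHA. Those that rose were KRT23, KRT19, KRT7, KRT15, KRT80, KRT33A and KRT33B, with log2 folds of 0.51 to 1.20, and KRT35 fell by 0.19 on the log2 scale. The 8 called genes were 18.2% of the family, against 29.6% of all genes tested. By direction this was 15.9% higher, against 14.0% of all genes tested, and 2.27% lower, against 15.6% of all genes tested. The share that rose was therefore near that of all genes, and the share that fell was below it. These shares take no account of level, and those by level are given in the next paragraph. The median log2 fold of the keratins was 0.00, against -0.03 for all genes tested. Both SAHA arrays lay above all DMSO arrays for 10 keratins and below all of them for 4, and over all genes tested this held for 22.1% and 26.0%. In either direction it was 31.8% of the keratins, against 48.1% of all genes tested. Over single probe sets, 7 of 56 keratin probe sets rose and 0 fell, against 11.0% and 11.1% of all probe sets tested.

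Most of the family was dim. The mean level of 37 keratins lay below that of the median gene (7.58 on the log2 scale), and without detection calls these values do not tell which of them were expressed. Among these 37, 3 rose (KRT23, KRT33A and KRT33B) and 1 fell, a called share of 10.8%, equal to the 10.8% of all genes below the median. Of all those dim genes 6.30% were called higher and 4.49% lower, against 8.11% and 2.7% of the dim keratins. The 7 keratins at or above the median were KRT18, KRT10, KRT8, KRT19, KRT7, KRT80 and KRT15. Of these, 4 rose (57.1%) and 0 fell. Of all genes in that level range 48.4% were called in either direction, 21.6% higher and 26.7% lower. This split by level was made after the values were seen, and intensities of different probe sets are not on a shared scale, so they rank no gene against another.

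**Figure D1:**
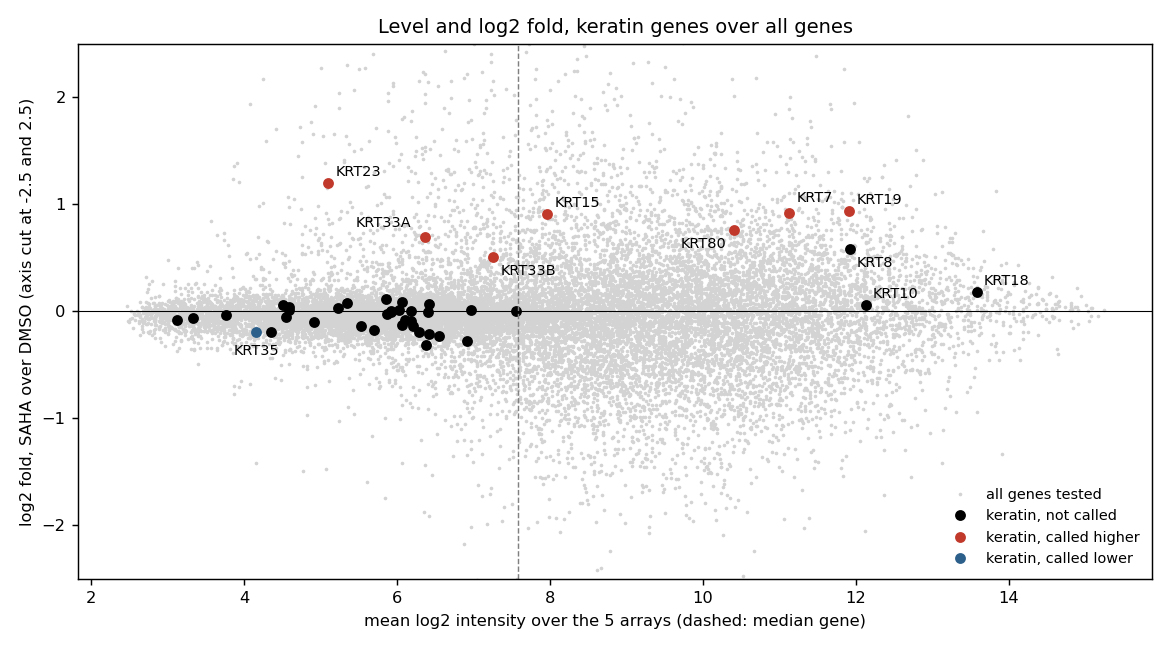
Mean log2 intensity over the 5 arrays (horizontal) against the log2 fold of SAHA over DMSO (vertical, with the extremes of other genes beyond the axis) for all 19775 genes in grey and 44 keratins in black, red (called higher) or blue (called lower). Most keratins crowd near 0 to the left of the median gene at 7.58, while KRT15, KRT80, KRT7 and KRT19 stand above 0 to its right.

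Among the simple epithelial keratins, KRT19 and KRT7 rose. KRT19, the smallest keratin and the type I partner made in ducts, had log2 intensities of 12.44 and 12.51 on the SAHA arrays, against 11.30, 11.61 and 11.69 on the DMSO arrays. Both SAHA values were above all DMSO values, with DMSO 1 the lowest. The log2 fold was 0.94 ± 0.13 (SE; 1.92-fold, limma adjusted p = 0.00783), and it was 0.82 without DMSO 1. Without SAHA 1 or SAHA 2 the call ended (limma adjusted p = 0.0738 and 0.0742), with log2 folds of 0.98 and 0.90. The other KRT19 probe set was dim and had 6.42 and 6.38 in SAHA, against 6.38, 6.26 and 6.38 in DMSO. Its groups overlapped (0.06 ± 0.05, SE; limma adjusted p = 0.503 over all probe sets), and with both probe sets averaged the gene's log2 fold was 0.50.

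KRT7, the type II keratin of glandular and ductal epithelium, had 11.59 and 11.77 in SAHA, against 10.63, 10.75 and 10.90 in DMSO. The groups did not overlap, and the log2 fold was 0.92 ± 0.10 (SE; 1.89-fold, limma adjusted p = 0.00409). This call held without each array in turn, at 0.83 to 1.01. It rests on 1 of its 4 probe sets, the brightest, whose name ending marks it as one that can share sequence between transcripts or genes. The next brightest had 7.70 and 7.78 in SAHA, against 7.61, 7.91 and 7.89 in DMSO, and its log2 fold was -0.06 ± 0.11 (SE). The 2 dimmest gave 0.19 and 0.11 and were not called, and with all 4 averaged the gene's log2 fold was 0.29.

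KRT8 and KRT18, the pair made first in embryonic and simple epithelia, were not called. KRT8 had 12.15 and 12.38 in SAHA, against 11.39, 11.84 and 11.83 in DMSO, so that both SAHA arrays were higher than every DMSO array and DMSO 1 was low. Its log2 fold was 0.58 ± 0.17 (SE; limma adjusted p = 0.0694). KRT8 passed the threshold under 4 of 14 other settings, with limma adjusted p-values of 0.0155 to 0.0411. Under the other 10 it did not, among them centring on added control RNAs (log2 fold 0.21, limma adjusted p = 0.121) and the fits without SAHA 1 or SAHA 2 (0.177 and 0.284). KRT18 had 13.58 and 13.81 in SAHA, against 13.57, 13.40 and 13.57 in DMSO. Its groups nearly touched, and the log2 fold was 0.18 ± 0.10 (SE; limma adjusted p = 0.263). Each has only 1 probe set here, both of the shared-sequence kind, and RefSeq lists 52 pseudogenes named after KRT8 and 68 named after KRT18. Whether pseudogene transcripts add to these signals was not tested.

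KRT20, the type I keratin of intestinal and urothelial lining, was not called, with 3.01 and 3.13 in SAHA, against 3.11, 3.18 and 3.16 in DMSO (log2 fold -0.08 ± 0.05, SE). The partners within filaments were also set side by side. KRT8 moved 0.41 further up than KRT18 on the log2 scale, and KRT7 moved 0.02 less than KRT19. An exact permutation test over the arrays (two-sided) gave p = 0.2 for KRT8 against KRT18 and p = 1 for KRT7 against KRT19, where 0.1 is the smallest p that 10 splits of the arrays allow. Also compared in this way were KRT5 with KRT14, KRT1 with KRT10, KRT4 with KRT13 and KRT33A with KRT33B. The last are neighbouring genes of the same type (type I), not partners within a filament, and were not a planned pair. KRT6A with KRT16 was planned, but KRT6A had no probe set that met the rule. Over all 6 pairs the lowest Benjamini-Hochberg adjusted p of the permutation test was 0.6. With these arrays no pair could have passed 0.05, so the test cannot tell whether partners differ.

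**Figure D2:**
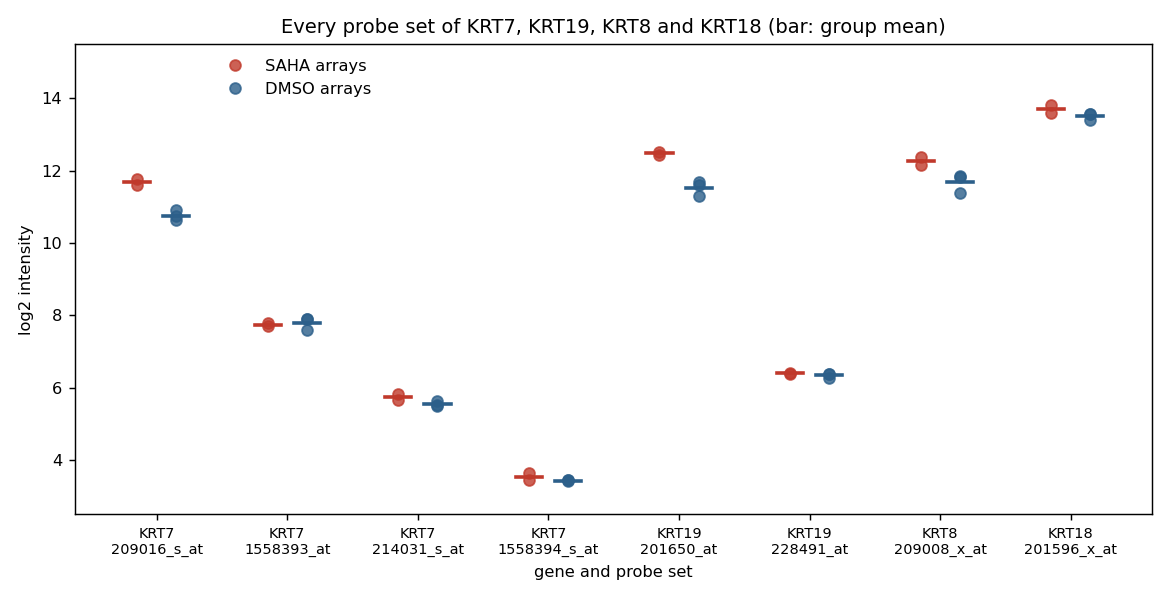
Log2 intensity (vertical) of each probe set annotated to KRT7, KRT19, KRT8 and KRT18 (horizontal), with 2 SAHA arrays in red left of 3 DMSO arrays in blue and a bar at each group mean. The groups are apart by 0.92 and 0.94 at the brightest KRT7 and KRT19 probe sets, and the other KRT7 and KRT19 probe sets are dimmer, with differences of -0.06 to 0.19.

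KRT15 was the keratin that changed most evenly. It is a type I keratin of basal epithelial cells and of the hair follicle bulge, where stem cells sit. KRT15 had 8.50 and 8.50 in SAHA, against 7.60, 7.55 and 7.63 in DMSO. It has 1 probe set here, and its DMSO mean of 7.59 was near the level of the median gene (7.58). The groups were far apart relative to their spread, with a log2 fold of 0.91 ± 0.04 (SE; 1.88-fold, limma adjusted p = 0.000661) that stayed at 0.89 to 0.93 without each array in turn. The other 3 measured members of its group gave no call. KRT5 (-0.01) and its basal partner KRT14 (-0.05) and the wound-activated KRT16 (-0.09) had limma adjusted p-values of 0.955, 0.852 and 0.523. KRT14 had 4.34 and 4.70 in SAHA, against 4.51, 4.77 and 4.42 in DMSO, so the groups overlapped at a low level.

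KRT80 and KRT23 belong to none of the classical sets. KRT80, a type II keratin, had 10.84 and 10.89 in SAHA, against 10.31, 10.00 and 10.00 in DMSO. The groups were apart, DMSO 1 was the highest DMSO array, and the log2 fold was 0.76 ± 0.12 (SE; 1.69-fold, limma adjusted p = 0.00977). Its call ended without SAHA 1, SAHA 2 or DMSO 3 (limma adjusted p = 0.083, 0.0824 and 0.0513), at log2 folds of 0.71 to 0.79.

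KRT23 is a type I keratin known as a gene that histone deacetylase inhibitors induce in pancreatic cancer cells. Here KRT23 had 5.58 and 6.06 in SAHA, against 4.70, 4.95 and 4.22 in DMSO. The groups did not overlap but were spread widely, and all 5 values were below the median gene. Its log2 fold of 1.20 ± 0.27 (SE; 2.29-fold, limma adjusted p = 0.0312) had the largest estimate and the largest SE of the 44 keratins. The call ended without any 1 of the 5 arrays (limma adjusted p = 0.0564 to 0.169), with log2 folds of 0.96 to 1.43.

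**Figure D3:**
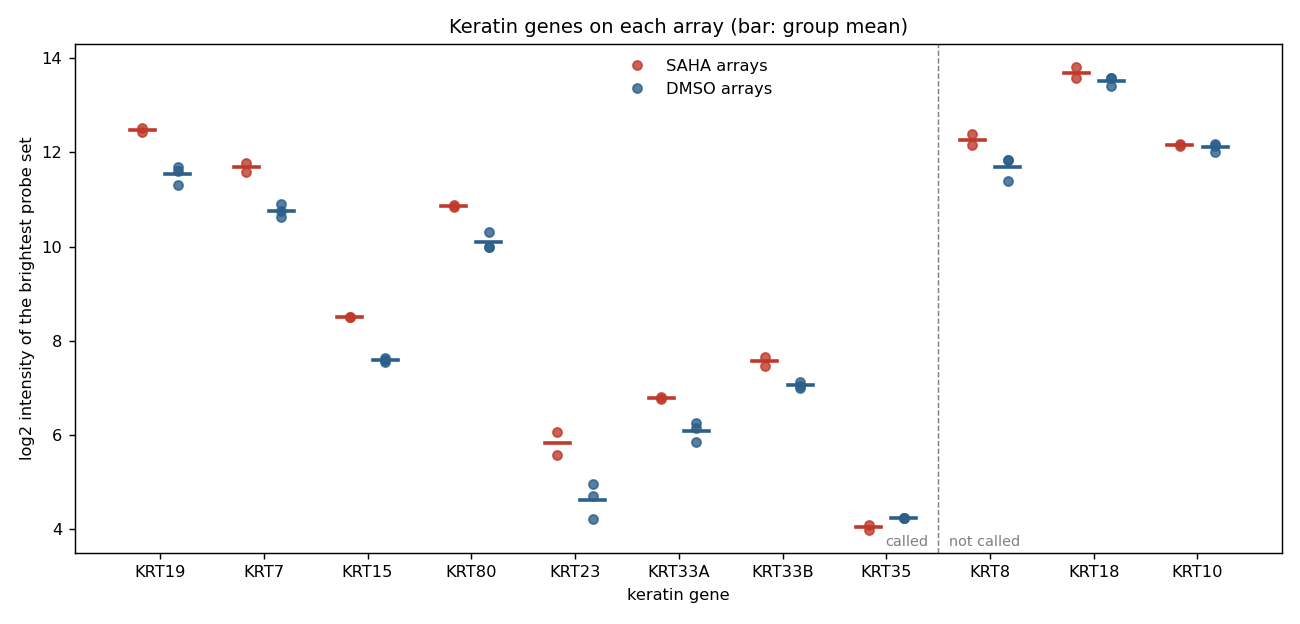
Log2 intensity of the brightest probe set (vertical) on each array for the 8 called keratins and for KRT8, KRT18 and KRT10 (horizontal), with SAHA arrays in red left of DMSO arrays in blue and a bar at each group mean. The groups are apart for all but KRT10, and at KRT18 they nearly touch (13.58 in SAHA against 13.57 in DMSO).

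Hair and nail keratins gave 2 genes that rose and 1 that fell among 12 measured, a called share of 25.0%, against 29.6% of all genes tested. KRT33A and KRT33B are neighbouring type I keratins of the hair cortex. KRT33A had 6.81 and 6.76 in SAHA, against 5.85, 6.26 and 6.14 in DMSO, which is 0.70 ± 0.13 higher on the log2 scale (SE; limma adjusted p = 0.0183). KRT33B had 7.66 and 7.47 in SAHA, against 7.05, 6.99 and 7.12 in DMSO, which is 0.51 ± 0.08 higher on the log2 scale (SE; limma adjusted p = 0.0104). For both genes the SAHA arrays were above all DMSO arrays at a level below the median gene. Each lost its call without 3 of the 5 arrays left out in turn, with limma adjusted p-values of up to 0.134 for KRT33A and 0.0512 for KRT33B. The KRT33A probe set can share sequence with other transcripts, so the pair may not be 2 independent readings. KRT35, a type I keratin of the hair matrix and lower cortex, had 4.09 and 3.99 in SAHA, against 4.23 on each DMSO array. The SAHA arrays were lower, by 0.19 ± 0.05 (SE; limma adjusted p = 0.0444). Its call rests on equal DMSO values at a dim level, and over probe sets rather than genes it was not called (limma adjusted p = 0.056).

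RefSeq promoter entries were found for 29 of the 44 keratins, and among the called genes for KRT33A, KRT33B and KRT35. The 250 bases before their RefSeq gene starts are shown because the first 2 rose together while the third, from the same gene cluster, fell. All are on the minus strand of GRCh38.p14 and are written 5′ to 3′, with capitals marking the letters TATAAA. They lie at chr17:41350829-41351078 (KRT33A), chr17:41369814-41370063 (KRT33B) and chr17:41481152-41481401 (KRT35).
KRT33A: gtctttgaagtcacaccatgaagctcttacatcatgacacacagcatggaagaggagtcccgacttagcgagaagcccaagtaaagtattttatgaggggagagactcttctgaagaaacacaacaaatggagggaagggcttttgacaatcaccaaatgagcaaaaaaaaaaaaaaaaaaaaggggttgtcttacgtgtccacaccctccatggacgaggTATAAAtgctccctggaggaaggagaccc
KRT33B: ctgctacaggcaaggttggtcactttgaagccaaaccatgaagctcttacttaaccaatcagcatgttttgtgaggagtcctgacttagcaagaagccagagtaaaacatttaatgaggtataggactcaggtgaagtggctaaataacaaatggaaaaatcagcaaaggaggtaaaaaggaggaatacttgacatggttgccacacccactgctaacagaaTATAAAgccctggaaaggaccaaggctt
KRT35: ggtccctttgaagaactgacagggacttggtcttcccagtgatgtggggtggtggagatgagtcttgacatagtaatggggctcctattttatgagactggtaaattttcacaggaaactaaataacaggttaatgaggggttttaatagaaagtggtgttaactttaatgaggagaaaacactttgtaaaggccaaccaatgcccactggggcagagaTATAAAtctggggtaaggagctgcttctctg
A TATAAA match began 29, 28 and 31 bases before the start in KRT33A, KRT33B and KRT35, and 10.7% of the 35116 RefSeq promoters hold one in the same window on either strand. GGGCGG and TGANTCA, also searched on both strands and with no overlap between motifs in these windows, had 0 matches in the 3 promoters, against 42.6% and 6.57% of all promoters. KRT33A and KRT33B were identical at 59.8% of aligned columns, against 53.8% for KRT33A with KRT35 and 54.2% for KRT33B with KRT35. A match is a description of letters, and its part in the calls was not tested. The KRT35 call itself rests on equal DMSO values at a dim level.

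The remaining keratins gave no call. KRT10, the type I keratin of differentiating epidermis, was bright without a change in signal that passed the test. It had 12.18 and 12.14 in SAHA, against 12.14, 12.17 and 12.01 in DMSO, with overlapping groups and a difference of 0.06 ± 0.06 on the log2 scale (SE; limma adjusted p = 0.566). All 3 of its probe sets lay between 0.06 and 0.16. Its epidermal partner KRT1 was dim, with 6.24 and 6.10 in SAHA, against 6.47, 6.28 and 6.33 in DMSO (-0.19 ± 0.08, SE; limma adjusted p = 0.177). None of the 13 suprabasal keratins (log2 folds of -0.31 to 0.09) and none of the 7 keratins of the inner root sheath and companion layer (-0.23 to 0.12) passed the test. All of these but KRT10 lay below the median gene, where 10.8% of all genes were called.

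Without KRT8, KRT18 and KRT10, the 33 keratins that were not called had mean levels of 3.12 to 7.56 and log2 folds of -0.31 to 0.12. For 31 of these 33 the log2 fold was smaller than 0.25 in either direction. KRT79 (-0.31) and KRT83 (-0.28), a keratin of sebaceous gland and follicle and one of hair cortex, were the most negative, each with overlapping groups. Exactly equal values on all arrays of a group occurred in 12 of the 44 keratins, among them KRT35, and in 2546 of all genes tested. Such genes have little spread from which to estimate an error.

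**Figure D4:**
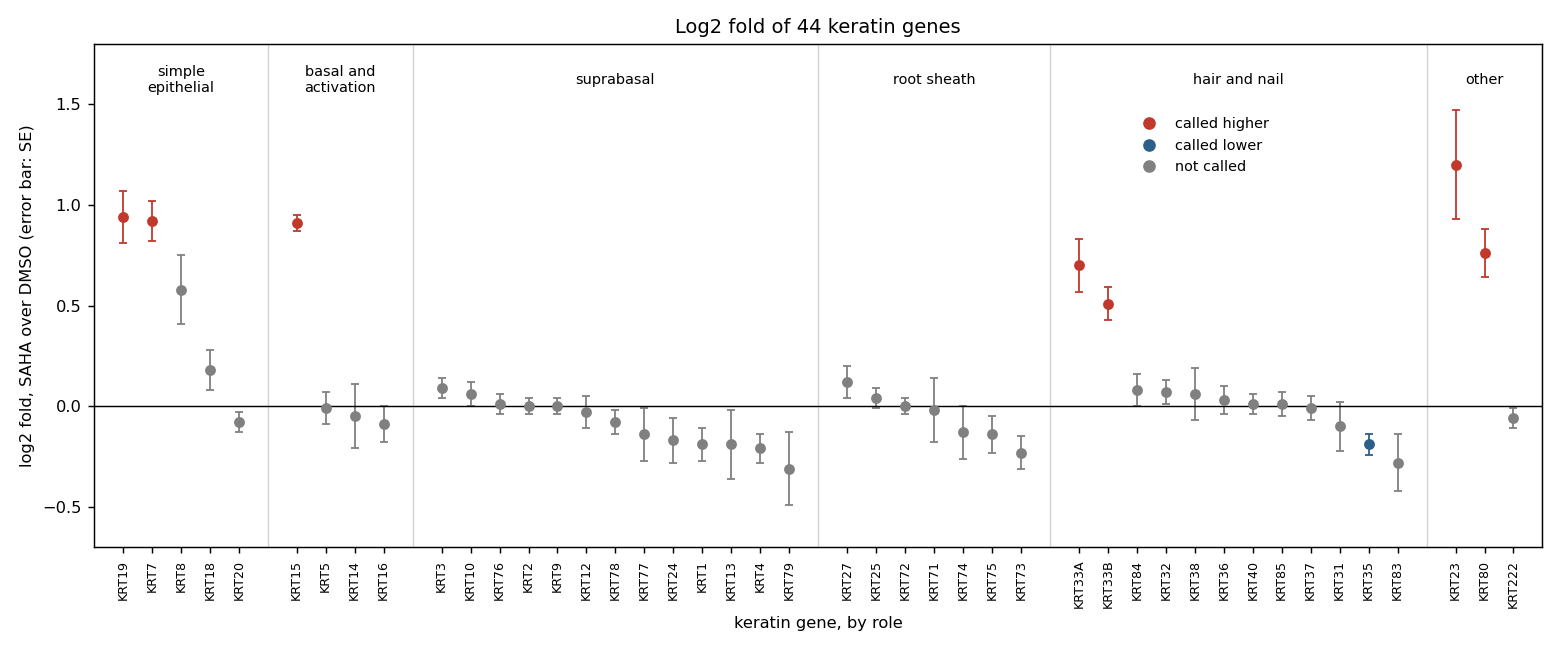
Log2 fold of SAHA over DMSO with its SE (vertical) for each of the 44 keratin genes (horizontal), grouped by role and coloured by call. The genes called higher fall into 4 of the 6 groups, and the 13 suprabasal and 7 root sheath keratins stay between -0.31 and 0.12.

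By type, 5 of 23 type I keratins rose and 1 fell, and 2 of 20 type II keratins rose and 0 fell, with KRT222 given no type. The shares that rose were 21.7% and 10.0%, on either side of the 14.0% of all genes tested, and the difference between the types was not tested. In the RefSeq gene order (GRCh38.p14), 6 of the 7 genes that rose stand in 3 neighbouring pairs with no protein-coding gene between them. These are KRT80 with KRT7 at one end of the chromosome 12 cluster, and KRT33A with KRT33B and KRT15 with KRT19 on chromosome 17. In all, 34 neighbouring keratin pairs had both genes tested, and in 3 others 1 gene rose and its neighbour did not. This arrangement was noticed in the data and was not tested. KRT8 and KRT18 close the other end of the chromosome 12 cluster.

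Keratin filaments attach to desmosomes and hemidesmosomes through plakin proteins. Of 22 measured genes of these structures, 5 rose and 2 fell (22.7% and 9.09%), against 14.0% and 15.6% of all genes tested, with a median log2 fold of -0.01. PPL, the keratin-binding linker periplakin, had 10.56 and 10.69 in SAHA, against 8.66, 8.24 and 8.56 in DMSO, a 4.41-fold rise (log2 fold 2.14 ± 0.14, SE; limma adjusted p = 0.00112). PKP2, a desmosomal plaque protein, had 9.90 and 9.43 in SAHA, against 7.73, 7.66 and 7.88 in DMSO (1.90 ± 0.16, SE; limma adjusted p = 0.00192). Neither gene's groups overlapped, and with all its probe sets averaged PKP2 gave 1.01. JUP, the plaque protein plakoglobin, rose by 0.77 on the log2 scale, while PKP3, another plakophilin, fell by 0.75 (limma adjusted p = 0.0015 and 0.00815). PKP3 lost its call without SAHA 1 (limma adjusted p = 0.0609) and gave -0.45 with its probe sets averaged. DSP, desmoplakin, the main link between keratin and desmosome, differed by 0.01 ± 0.07 on the log2 scale (SE; limma adjusted p = 0.916).

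Among 15 intermediate filament genes other than keratins, 1 rose and 4 fell (6.67% and 26.7%), against 14.0% and 15.6% of all genes tested, with a median log2 fold of -0.07. In either direction 33.3% of the list was called, near the 29.6% of all genes tested. VIM, vimentin, the filament protein of mesenchymal cells, had 13.83 and 13.86 in SAHA, against 13.92, 13.97 and 14.03 in DMSO. Both SAHA arrays were lower, by a log2 fold of -0.13 ± 0.05 (SE) that did not pass the test (limma adjusted p = 0.133). With its probe sets averaged VIM gave -0.2, also not called (limma adjusted p = 0.0563). With arrays centred on added control RNAs it was called lower, at -0.50 (limma adjusted p = 0.000489). Calls in that setting follow the size of the log2 fold and not the gene's own spread. The genes that fell furthest were LMNB1 (-1.86 ± 0.11, SE) and LMNB2 (-1.07 ± 0.09, SE), the B-type lamins of the nuclear envelope, and SYNM (-1.09 ± 0.08, SE), synemin, which joins vimentin or desmin filaments. LMNB1 had 7.75 and 7.41 in SAHA, against 9.41, 9.50 and 9.41 in DMSO (limma adjusted p = 0.001). NES, nestin, rose by 0.48 ± 0.05 (SE; limma adjusted p = 0.00258), and by 0.24 with its probe sets averaged, and it lost its call with centring on the control RNAs (log2 fold 0.11).

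**Figure D5:**
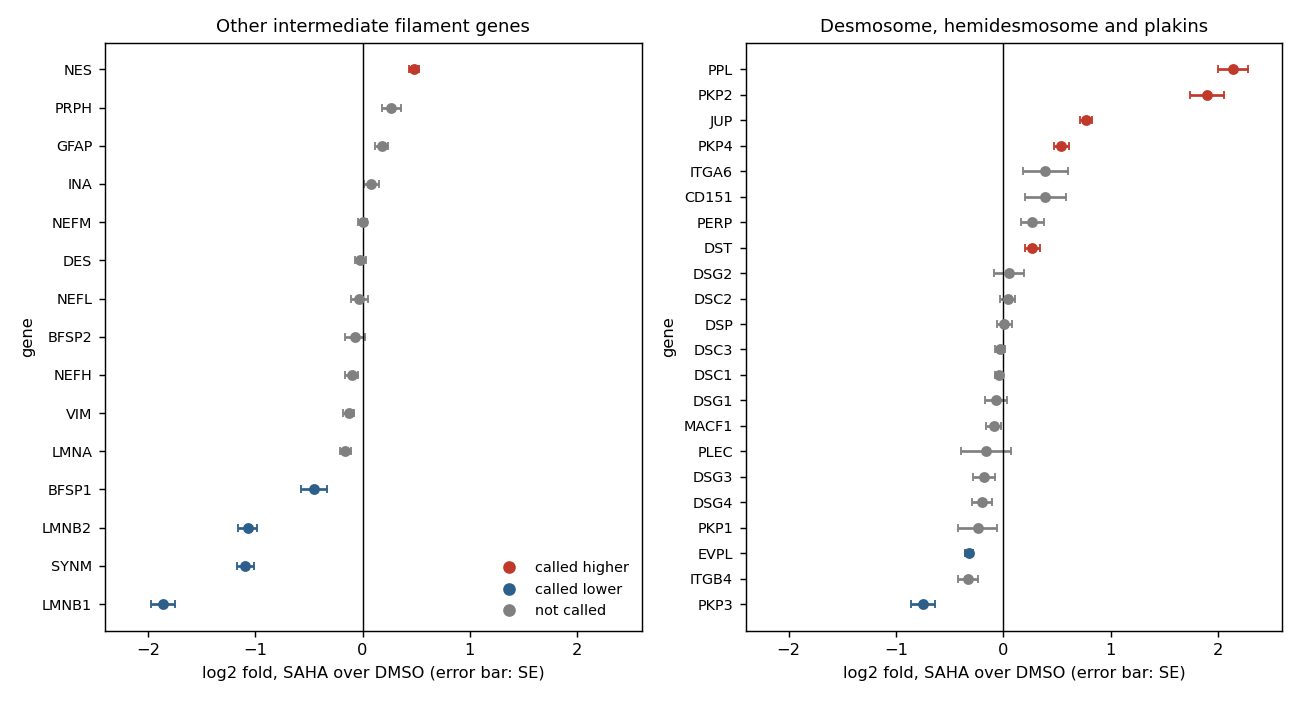
Log2 fold of SAHA over DMSO with its SE (horizontal) for 15 intermediate filament genes other than keratins (left) and 22 desmosome, hemidesmosome and plakin genes (right), one gene per row and coloured by call. PPL (2.14) and PKP2 (1.90) stand furthest to the right, and LMNB1 (-1.86) furthest to the left.

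The labelled cell line was checked against markers. Of 7 mesenchymal markers 6 were above the median gene, the exception being SPARC, and 1 rose and 2 fell. Of 6 luminal markers 4 were below the median gene (CDH1, ESR1, FOXA1 and CLDN3). EPCAM (mean level 9.99) and GATA3 (9.31) were above it. The summed intensity of the luminal list was 1619 to 1771 in SAHA and 2160 to 2343 in DMSO. That of the mesenchymal list was also lower, at 58026 to 62713 in SAHA and 63560 to 64387 in DMSO. Such sums are carried by the brightest probe sets, whose intensities are not on a shared scale. Of the luminal list 1 rose and 2 fell, the same counts as in the mesenchymal list. Over all genes tested 14.0% were called higher and 15.6% lower, and at or above the median gene 21.6% and 26.7%. The lists are too short for these counts to be read as a result about the markers. CDH1, the epithelial cadherin, rose (log2 fold 1.64 ± 0.15, SE) and EPCAM, an epithelial adhesion molecule, fell (-0.72 ± 0.11, SE), with limma adjusted p-values of 0.00259 and 0.0102. GATA3, a luminal transcription factor, fell by 0.26 (limma adjusted p = 0.0311). All 9 measured markers of blood, endothelial and fat cells were below the median gene, though among them CD14 rose by 0.87 and PTPRC fell by 0.34 on the log2 scale. The part of these markers in the keratin values was not tested, and in bulk RNA a change in all cells and a change in the share of cells of one kind cannot be told apart.

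Control RNAs moved with treatment. For the polyadenylated RNAs added as controls, SAHA was above DMSO in all 24 probe sets, by a median of 0.39 on the log2 scale. With each array centred on them the median of all genes moved to -0.40 and that of the keratins to -0.37, and 6 keratins were called higher and 34 lower, while of all 19775 genes 1361 were called higher and 14548 lower. KRT18 and KRT10 turned negative (-0.19 and -0.32) and KRT33B lost its call (log2 fold 0.13). Still past the threshold were KRT23, KRT19, KRT7, KRT15, KRT80 and KRT33A, at smaller log2 folds of 0.82, 0.57, 0.55, 0.54, 0.39 and 0.33. Their limma adjusted p rose steadily as the log2 fold shrank, from 9.81e-07 (KRT23) to 0.017 (KRT33A), whatever the spread of the gene. Calls under this centring, higher or lower, therefore work as a cutoff on the log2 fold. DMSO 1 was the lowest DMSO array for KRT7, KRT8, KRT19 and KRT33A. It was the highest for KRT80 and the middle one for KRT15, KRT23 and KRT33B. The ACTB control had a larger 3′ minus 5′ difference on DMSO 1 (3.29 on the log2 scale). That difference was 2.16 and 2.04 in SAHA, and 2.08 and 2.22 on the other DMSO arrays. Its part in the keratin values was not tested. Without DMSO 1 the log2 fold of KRT8 was 0.44 (limma adjusted p = 0.0656).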

How the data were processed

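RNA of 5 samples was measured on single-colour oligonucleotide arrays. Per the submitters' processing notes, the deposited intensity values were made with RMA (background correction, quantile normalization and 1 summary value per probe set) in R 2.12. The table holds 54675 probe sets on a linear scale (4.561 to 38935), without detection calls, and log2 was taken without normalizing again. Of these, 62 controls, 1801 probe sets with several genes and 11721 with none were left out, and symbols of 41037 of 41091 probe sets were updated through RefSeq (GRCh38.p14). Group differences were fitted with limma 3.58.1 under R 4.3.3 (two-sided, no covariates, 3 residual and 1.62 prior degrees of freedom) over 19775 genes and separately over 41091 probe sets. Promoters were aligned with Biopython 1.88 and figures drawn with matplotlib 3.10.9. The test was tried on simulated data first. The number of arrays limits the precision. Median intensity per array was 88.8 and 91.2 in SAHA and 90.0, 90.3 and 90.1 in DMSO.

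The rule for named genes gave array values for called keratins, KRT7, KRT8, KRT18, KRT19 and the 4 brightest keratins, and named VIM and up to 4 called genes per partner list. DSP, KRT1, KRT5, KRT14, KRT16, KRT20, KRT79 and KRT83 were also given. The members and lists were chosen with earlier results of these data known. Alternatives changed the scaling, the choice of probe set, a filter on genes below the 40th percentile, the variance model, array weights, the threshold (0.01), a replicate block and the arrays left out, and 1 chosen after seeing the data left out genes with equal values in a group.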

Additional observations from a re-analysis of the deposited data

Results flagged for a closer look

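Probe sets that the annotation assigns to a keratin name together with another gene, or to an antisense transcript, are outside the comparisons above, and 2 of them were higher in SAHA (limma over all 54613 probe sets that are not controls). The probe set shared by KRT34, a hair cortex keratin next to KRT33B, and a LOC entry had 10.01 and 9.70 in SAHA, against 8.28, 8.69 and 8.52 in DMSO (log2 fold 1.36 ± 0.16, SE; limma adjusted p = 0.0101). That of KRT10-AS1, the antisense transcript at KRT10, had 11.85 and 11.97 in SAHA, against 11.50, 11.17 and 11.39 in DMSO (log2 fold 0.56 ± 0.12, SE; limma adjusted p = 0.04).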

How the results depend on the processing

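Calls rest on 3 residual degrees of freedom, and signal over background is unknown, which bears on the calls of the dim KRT23, KRT33A, KRT33B and KRT35. KRT15 stayed called under all 15 other settings and KRT7 under 14. Leaving out single arrays, 3 to 5 keratin genes were higher and 0 to 5 lower, and 2 to 5 keratin probe sets higher and 0 to 4 lower. The fewest higher genes came without SAHA 1 (3) and DMSO 3 (4). The most lower genes came without SAHA 2 (5). For other intermediate filament genes the ranges were 1 to 1 and 3 to 5, and for desmosome, hemidesmosome and plakin genes 4 to 7 and 1 to 4. Over all genes, 1769 to 2075 were higher and 1985 to 2353 lower when single DMSO arrays were left out, against 2760 and 3089 with all arrays. The fits without SAHA 1 or SAHA 2 leave 1 SAHA array. Without shared-sequence probe sets 36 keratins remained, 4 of them higher and 0 lower, and of all 17098 genes left 2176 were higher and 2105 lower. In that setting 2 intermediate filament genes were lower, and 2 desmosome genes were higher and 1 lower. There KRT7 gave -0.06 (limma adjusted p = 0.721), and KRT8, KRT18, KRT23, KRT33A and KRT35 had no probe set left. At adjusted p under 0.01, 4 keratin genes and 2 keratin probe sets were higher and 0 genes lower. KRT35 was the only keratin called lower, and 0 were lower after quantile normalization again, with trend and robust and with array weights. The settings without dim genes and without genes with equal values also gave 0, but both leave KRT35 out and so cannot test its call. With centring on ribosomal protein genes 1 keratin probe set was lower, against 0. With centring on the polyadenylated controls 34 keratin genes, 42 keratin probe sets, 12 intermediate filament genes and 14 desmosome genes were lower, with 0 and 3 of the last 2 lists higher. Calls under this centring work as a cutoff on the log2 fold, and KRT18 gave -0.19 and KRT10 -0.32. After quantile normalization again KRT10 gave -0.01. With the replicate number as a block (replicate block), 4 keratin genes and 0 keratin probe sets were higher and 0 keratin genes lower, 0 intermediate filament genes were higher and 0 desmosome genes lower. DMSO 3 is alone in its block, so this fit has fewer residual degrees of freedom and gave the named genes the same log2 folds as without DMSO 3. Over all genes 1262 were higher and 1316 lower with the block, against 2760 and 3089, and at 0.01 the counts were 1544 and 1773. The causes of these differences were not tested beyond what fewer samples or probe sets bring. Deviations of arrays with the same number correlated at 0.15 for number 1 and -0.07 for number 2. With only 2 SAHA arrays these values cannot decide whether the numbers pair the samples.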

Other observations

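The other 5 left-out probe sets carry keratin pseudogene names and were not called. The 2 of KRT8P12 had log2 folds of 0.31 and 0.16 (limma adjusted p = 0.0988 and 0.44), the 2 of KRT19P2, one of them shared with a microRNA gene, -0.29 and 0.09 (0.27 and 0.53), and that of KRT17P5 0.02 (0.875).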
